A study of Arabidopsis thaliana with 6 samples.

Results

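The miR156 and miR157 miRNAs of Arabidopsis thaliana were taken as every entry of the deposited miRNA tables in which at least 1 of the joined names is a miR156 or a miR157. This rule selected 9 of 197 entries, 6 of miR156 and 3 of miR157, and the 9 entries hold 17 of 242 mature miRNA names. An entry joins miRNAs that share one mature sequence, so a single value can come from several genes. Small RNA had been sequenced from whole 14-day-old seedlings of the mutant aar2-1 (replicates 1 to 3) and of wild type (WT, replicates 1 to 3). All seedlings were grown at 16 h light and 8 h dark on MS medium of 0.5 strength, and no agent was applied in either group. In yeast and animals, proteins related to AAR2 help to build a spliceosome subunit. The nature of the aar2-1 allele is not given in the labels, and the AAR2 transcript is not measured by these tables.

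miR156 and miR157 keep Arabidopsis in its juvenile phase. Their level is high in young seedlings and declines as the shoot ages, and they lower the transcripts of SPL genes, which encode transcription factors that promote adult leaf traits and flowering. Each is cut from a hairpin precursor as a duplex. The 5p strand is the guide that acts on SPL transcripts, and the 3p strand is its partner, most of which is degraded. SPL proteins in turn activate MIR172 genes, so miR156 and miR172 run in opposite directions during shoot development.

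The mature sequences, read from the RefSeq annotation of TAIR10.1, are given because they decide which genes can be told apart. Bases 2 to 8, the seed, are in capitals.
miR156a-5p to miR156d-5p, miR156e and miR156f-5p: uGACAGAAgagagugagcac
miR156g: cGACAGAAgagagugagcac
miR157a-5p to miR157c-5p: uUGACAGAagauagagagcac
miR156a-3p: gCUCACUGcucuuucugucaga
miR156c-3p: gCUCACUGcucuaucugucaga
miR156b-3p: uGCUCACCucucuuucugucagu
miR156d-3p: gCUCACUCucuuuuugucauaac
miR157a-3p and miR157b-3p: gCUCUCUAgccuucugucauc
miR157c-3p: gCUCUCUAuacuucugucacc

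The 9 sequences fall into 6 seed groups. The joined miR156 5p entry and miR156g share one seed and differ only by C1U, counted from the 5′ end with the base of miR156g first. The miR157 5p sequence carries one additional base at its 5′ end, which moves its seed by one position. Aligned with that offset, it is identical to the joined miR156 5p sequence at 18 of 20 bases and differs by G11U and U14A (positions of miR156, its base first). Among the 3p strands, miR156c-3p and miR156a-3p differ by A13U alone, whereas miR157a-3p and miR157c-3p differ at 3 of 21 bases. The joined miR156 5p sequence occurs at 6 places of the genome and the miR157 5p sequence at 3. The miR157a and miR157b 3p sequence occurs at 2 places, and the other sequences occur once. The 5p values therefore add up several genes, and the 3p values of MIR156a, MIR156b, MIR156c, MIR156d and MIR157c each belong to a single gene, apart from reads with sequencing errors.

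The 17 names come from 10 genes. On TAIR10.1 the precursors lie at chr2:10676451-10676573 (MIR156a, minus strand), chr4:15074899-15075081 (MIR156b, plus), chr4:15415418-15415521 (MIR156c, minus) and chr5:3456632-3456749 (MIR156d, minus). The next are at chr5:3867207-3867313 (MIR156e, plus), chr5:9136106-9136237 (MIR156f, plus) and chr2:8412516-8412618 (MIR156g, minus). The miR157 precursors lie at chr1:24913202-24913299 (MIR157a, minus), chr1:24921086-24921217 (MIR157b, plus) and chr3:6244500-6244716 (MIR157c, minus). The mature sequences of MIR156d lie in an intron of the protein-coding gene AT5G10946, and those of MIR156b and MIR156f overlap exons of the noncoding genes AT4G30975 and AT5G26146. The other 7 are intergenic on their own strand, and miR156g lies opposite AT2G19420. The hairpins of MIR156a and MIR157c are shown because their 3p strands can be followed singly, with both mature strands in capitals.
MIR156a: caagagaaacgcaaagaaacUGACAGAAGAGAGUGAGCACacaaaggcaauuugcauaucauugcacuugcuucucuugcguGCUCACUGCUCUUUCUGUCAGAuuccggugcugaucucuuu
MIR157c: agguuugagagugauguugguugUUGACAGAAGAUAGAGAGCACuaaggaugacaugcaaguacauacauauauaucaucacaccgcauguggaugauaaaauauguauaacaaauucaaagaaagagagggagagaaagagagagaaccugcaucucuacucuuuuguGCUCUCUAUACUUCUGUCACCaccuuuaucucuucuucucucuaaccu

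The strands of MIR156a are separated by 42 bases and those of MIR157c by 125 bases. The target site of both guides is shown in SPL9, a promoter of adult leaf identity, and in SPL3, a promoter of flowering. Capitals mark Watson-Crick pairs with the joined miR156 5p sequence.
SPL9 coding sequence, chr2:17589066-17589085, plus strand: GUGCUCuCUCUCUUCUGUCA
SPL3 3′ untranslated region, chr2:14305878-14305897, plus strand: uUGCUuACUCUCUUCUGUCA

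An ungapped search of the annotated SPL transcripts found such a site in each of the 11 SPL genes listed as targets from background knowledge. It left 1 to 3 bases outside Watson-Crick pairs with miR156 and 1 to 5 with miR157. The best match in the 6 other SPL genes left 6 to 8 with miR156 and 7 to 8 with miR157. Of the 11 sites 8 lay in coding sequence and 3 in the 3′ untranslated region. SPL transcripts themselves are not measured in these tables.

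Abundance is given in RPM, reads scaled to a common library total that the files do not define. The values imply totals of 7062198 to 11524176 reads in aar2-1 and 8505555 to 9754859 reads in WT. Reads of miR156 and miR157 numbered 4256 to 10826 per aar2-1 library and 10254 to 12353 per WT library. The sum of the other 188 entries was 26741, 20178 and 17944 RPM in aar2-1 replicates 1 to 3 and 51809, 45231 and 51569 RPM in WT replicates 1 to 3. In whole seedlings, fewer cells that make a miRNA and less of it per cell cannot be told apart. The tables hold miRNAs only, so the labelled tissue could not be checked against marker genes.

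The first comparison asked whether the total of miR156 and miR157 differs in aar2-1. The 9 entries summed to 939, 603 and 486 RPM in aar2-1 replicates 1 to 3, against 1318, 1051 and 1249 RPM in WT replicates 1 to 3. The 3 mutant sums were all smaller than the 3 WT sums, and replicate 1 was the highest library of its genotype. The means were 676 ± 235 RPM in aar2-1 and 1206 ± 138 RPM in WT (SD, n = 3 each). The sum was 1.78-fold lower in aar2-1, a difference of -530 RPM (two-sided exact permutation p = 0.1, the smallest that 3 libraries against 3 allow; 0.2 after Benjamini-Hochberg adjustment over the 4 quantities tested this way). After each library was divided by its median ratio, the means were 907 ± 30.1 in aar2-1 and 865 ± 21.2 in WT. The sign of the difference turned under that scaling, but the genotypes overlapped (two-sided exact permutation p = 0.2).

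The guide strand of miR156, the most abundant of the 9 entries, carried most of this total. The joined miR156 5p entry had 545, 370 and 323 RPM in aar2-1 and 783, 712 and 814 RPM in WT. The genotypes did not overlap, and the WT libraries lay closer together than the mutant ones. Means were 413 ± 117 RPM in aar2-1 and 770 ± 52.7 RPM in WT (SD, n = 3 each), 1.86-fold lower in the mutant. On the log2 scale the change was -0.93 ± 0.26 (SE), with an adjusted p of 0.00658 in limma. Each log2 fold change was computed from log2(RPM + 1), and adjusted p-values come from limma over all 131 entries with a mean of at least 1 RPM. The entry ranked 9, 9 and 10 among the 197 entries in the aar2-1 libraries and 11, 9 and 10 in the WT libraries, so its rank lay between 9 and 11 in every library. After median-ratio scaling its log2 fold change was 0.02 ± 0.18 (SE; adjusted p = 0.94 in limma), so no change was detected there.

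The guide strand of miR157 varied more between replicates. Its joined 5p entry had 192, 92.9 and 75.6 RPM in aar2-1 and 245, 121 and 187 RPM in WT. The genotypes overlapped, because aar2-1 replicate 1 exceeded WT replicates 2 and 3. The mean was 120 ± 62.7 RPM in aar2-1 and 184 ± 61.7 RPM in WT (SD, n = 3 each). The log2 fold change was -0.68 (95% interval -1.46 to 0.11, limma adjusted p = 0.113) and did not pass the threshold of 0.05. A fall of the size seen for the miR156 guide lies inside that interval. The minor guide miR156g, which differs from the main one at its first base, had 2.78, 1.98 and 1.59 RPM in aar2-1 and 3.20, 2.67 and 4.59 RPM in WT. These values rest on 14 to 39 reads per library, and the genotypes overlapped (-0.52 ± 0.27 on the log2 scale, SE; adjusted p = 0.0944 in limma). A read of the main guide with an error at its first base would count here.

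**Figure D1:**
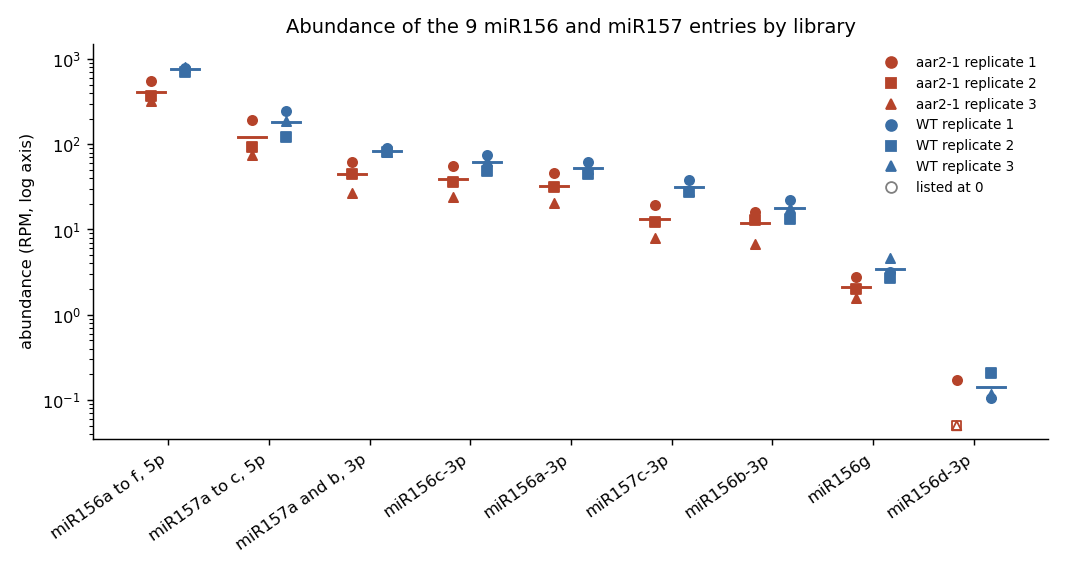
Abundance of the 9 entries in RPM on a log axis, in descending order of mean, with aar2-1 left of WT, 1 marker per library and a line at the mean where all 3 libraries are above 0. The miR156 guide (miR156a to f, 5p) lies at 323 to 545 RPM in aar2-1 and 712 to 814 RPM in WT. The miR157 guide overlaps between genotypes, at 75.6 to 192 RPM and 121 to 245 RPM.

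The 3p strands of MIR157 fell with RPM as deposited. After centring on the median their log2 fold changes were positive, 0.36 for miR157a with miR157b and 0.10 for miR157c. Both were below the median of 0.52 that all tested entries had under that centring. The joined miR157a and miR157b 3p entry had 62.6, 44.2 and 26.8 RPM in aar2-1 and 91.0, 81.0 and 80.1 RPM in WT. All 3 mutant values lay below the WT values. The means were 44.5 ± 17.9 RPM in aar2-1 and 84.0 ± 6.07 RPM in WT (SD, n = 3 each), or -0.98 ± 0.34 on the log2 scale (SE), with an adjusted p of 0.0203 in limma. This call was lost without aar2-1 replicate 2 (limma adjusted p = 0.0608), aar2-1 replicate 3 (0.105), WT replicate 1 (0.0642) or WT replicate 3 (0.0639). The entry miR157c-3p, from a single gene, had 19.5, 12.3 and 7.95 RPM in aar2-1 and 37.7, 27.6 and 28.5 RPM in WT. Again the genotypes did not overlap. Its means of 13.3 ± 5.85 RPM in aar2-1 and 31.2 ± 5.59 RPM in WT (SD, n = 3 each) gave a 2.35-fold lower level. On the log2 scale this was -1.24 ± 0.35 (SE; adjusted p = 0.00634 in limma), the largest decrease of the 8 tested entries.

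The 3p strands of MIR156 had smaller estimates, and none passed the threshold. From MIR156a, one of the main sources of miR156 in seedlings, miR156a-3p had 45.8, 31.9 and 20.2 RPM in aar2-1 and 61.5, 45.1 and 51.5 RPM in WT. From MIR156c, the other main source, miR156c-3p had 56.1, 36.2 and 23.8 RPM in aar2-1 and 74.5, 48.6 and 64.2 RPM in WT. In both entries aar2-1 replicate 1 exceeded WT replicate 2 and the other mutant libraries lay below all WT libraries. Their log2 fold changes were -0.74 each (SE 0.34 for miR156a-3p and 0.35 for miR156c-3p, limma adjusted p = 0.0697 and 0.0765). Their relative levels overlapped between genotypes. miR156a-3p made up 39.3% ± 0.440 of the miR156 3p RPM in aar2-1 and 39.8% ± 2.01 in WT (SD, n = 3 each). miR156c-3p made up 46.4% ± 1.5 in aar2-1 and 46.8% ± 1.31 in WT (SD, n = 3 each).

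The weakest tested 3p strand, miR156b-3p, had 15.9, 13.0 and 6.81 RPM in aar2-1 and 22.3, 13.2 and 18.1 RPM in WT. The genotypes overlapped (-0.59 ± 0.35 on the log2 scale, SE; adjusted p = 0.141 in limma). The ninth entry, miR156d-3p, was not tested, since its mean was 0.10 RPM. It had 2, 0 and 0 reads in aar2-1 and 1, 2 and 1 reads in WT, all below the floor of 3 reads, and no fold is given. A library with 0 reads allows up to 0.425 RPM in aar2-1 replicate 2 and 0.341 RPM in aar2-1 replicate 3, for counting error only.

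Of the 9 entries 8 were tested, and with RPM as deposited 3 passed as lower in aar2-1: the miR156 guide and both miR157 3p entries. Among all 131 tested entries 80 passed as lower, a share of 61.1%, and 63.4% passed in either direction, so 3 of 8 is no larger a share than in the tables at large. None of the 8 passed as higher in limma, and 0 were higher at an unadjusted p under 0.05, against 3 of all 131 at either level. At that unadjusted level 4 of the 8 passed, all lower, against 88 of all 131 tested entries in either direction. Without aar2-1 replicate 1 all 8 passed as lower, and without WT replicate 2 the number was 5. Calls of all entries in either direction then numbered 109 and 95, against 83 with all 6 libraries. In 3 of the 8 every mutant value was below every WT value, against 59.5% of all tested entries that lay wholly below WT. The 8 log2 fold changes ran from -1.24 to -0.52 with a median of -0.74, and the median over all tested entries was -0.83, with quartiles of -1.31 and -0.56. Between 40 and 100 of the 131 tested entries had a larger decrease than each of the 8.

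Because most miRNAs were lower in aar2-1, the changes were also set against the shift they share. Division of each library by its median ratio over 53 entries moved the median log2 fold change of all entries by 0.73, to -0.09. The 8 entries then ran from -0.35 for miR157c-3p to 0.29 for miR156b-3p, 6 of them above 0, with a median of 0.18. The miR156 guide was at 0.02 (95% interval -0.34 to 0.38) and the miR157 guide at 0.27 (95% interval -0.18 to 0.72). Under this scaling 0 of the 8 passed in limma in either direction, whereas 35 of all entries passed as lower and 19 as higher. At an unadjusted limma p under 0.05 there were 0 of the 8 and 63 of all 131 tested entries. The intervals do not show that the levels are equal. After centring on the median, all 8 changes were positive and 5 passed as higher in limma, against 55 higher and 12 lower calls among all entries. Of all 131 tested entries 99 were positive under that centring, with a median of 0.52, and the 8 had a median of 0.60.

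**Figure D2:**
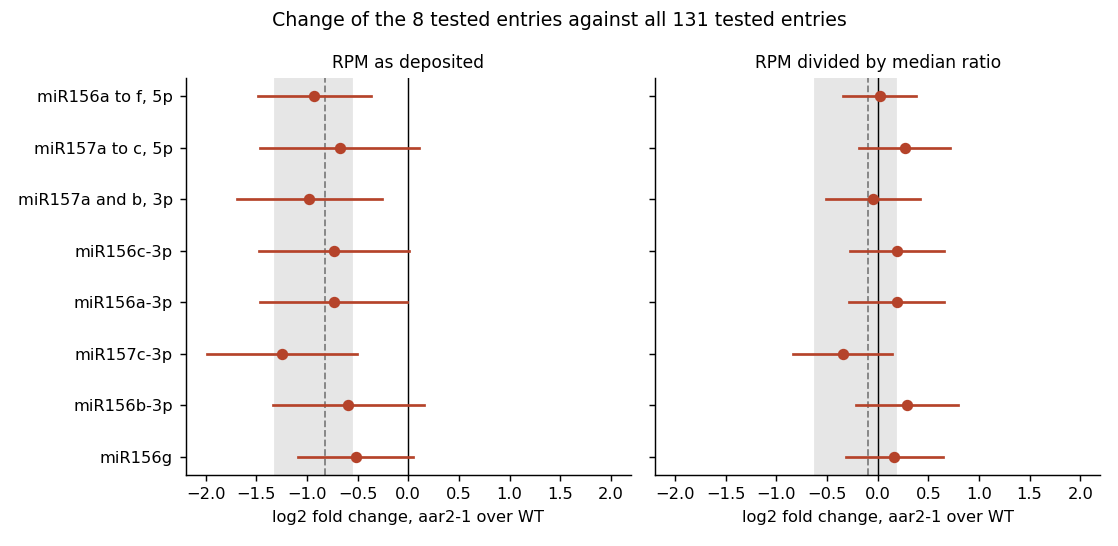
Log2 fold change of aar2-1 over WT with its 95% interval for the 8 tested entries, for RPM as deposited (left) and after division by the median ratio of each library (right). The dashed line is the median and the grey band the middle quartiles of all 131 tested entries. All 8 points lie below 0 on the left, close to the median of -0.83, and 6 of 8 lie above 0 on the right. The sign of the estimate turns with the scaling for those 6, and on the right 0 of the 8 passed in limma.

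The members were also summed by miR number. The miR156 family had 665, 453 and 376 RPM in aar2-1 and 945, 821 and 953 RPM in WT, without overlap. Its change on the log2 scale was -0.90 ± 0.27 (SE; adjusted p = 0.0135 in limma over 77 families) with the values as deposited, and it turned to 0.05 after median-ratio scaling, 0.24 after centring on the median and 0.19 after quantile normalization. This call was lost without aar2-1 replicate 2 (limma adjusted p = 0.0663), aar2-1 replicate 3 (0.0594) or WT replicate 3 (0.0631). The miR157 family had 274, 149 and 110 RPM in aar2-1 and 373, 230 and 296 RPM in WT, with overlap. Its log2 fold change of -0.83 (95% interval -1.63 to -0.02, limma adjusted p = 0.0664) did not pass, and it turned to 0.12, 0.32 and 0.58 under the same 3 scalings. It passed without aar2-1 replicate 1 (limma adjusted p = 0.00211) or WT replicate 2 (0.0451). Of all families 59.7% passed as lower and 3.9% as higher, 63.6% in all.

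By arm, miR156 5p and miR157 3p passed as lower with RPM as deposited, and miR156 3p and miR157 5p did not. The log2 fold changes were -0.93 for miR156 5p (limma adjusted p = 0.00741), -0.73 for miR156 3p (0.071), -0.68 for miR157 5p (0.112) and -1.06 for miR157 3p (0.0126), against 61.2% of all 103 sums by family and arm that passed as lower, 2.91% as higher and 64.1% in all. Under median-ratio scaling they were 0.02, 0.21, 0.27 and -0.12, so only miR157 3p kept a negative sign there, and it too turned positive, to 0.29, after centring on the median. Without aar2-1 replicate 2 the calls of miR156 5p (limma adjusted p = 0.0508) and miR157 3p (0.0529) were lost, and without aar2-1 replicate 3 that of miR157 3p (0.0801). Without aar2-1 replicate 1, miR156 3p (0.00698) and miR157 5p (0.00815) passed, as they did without WT replicate 2 (0.0413 and 0.027).

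Shares within a library do not change when all its values are divided by one factor. miR156 and miR157 together made up 3.39%, 2.90% and 2.64% of all miRNA RPM in aar2-1 and 2.48%, 2.27% and 2.36% in WT. Each mutant library lay above each WT library. The mean share was 2.98% ± 0.384 in aar2-1 and 2.37% ± 0.105 in WT (SD, n = 3 each), a difference of 0.605 percentage points (exact permutation p = 0.1, two-sided, which 3 against 3 cannot go below; 0.2 adjusted over the 4 quantities). The sum of all other entries was 2.29-fold lower in aar2-1, against 1.78-fold for miR156 and miR157. The miR156 entries alone made up 2.21% ± 0.184 in aar2-1 and 1.79% ± 0.016 in WT, without overlap. The miR157 entries alone made up 0.769% ± 0.200 in aar2-1 and 0.586% ± 0.105 in WT, with overlap. With the 3 most abundant entries of the tables left out of the denominator, the share was 8.41% ± 0.643 in aar2-1 and 5.87% ± 0.213 in WT.

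No difference in the balance of the arms was detected. The 3p strands made up 21.3%, 22.8% and 17.6% of miR156 and miR157 RPM in aar2-1 and 21.8%, 20.5% and 19.4% in WT. The genotypes overlapped fully, and the mean difference was 0.010 percentage points (two-sided exact permutation p = 1.0). Among the 5p strands miR157 made up 25.9%, 20.0% and 18.9% in aar2-1 and 23.7%, 14.5% and 18.6% in WT. These values overlapped too, with a difference of 2.65 percentage points (two-sided exact permutation p = 0.4; 0.533 adjusted over the 4 quantities).

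Within the 3p strands, the miR157 entries together made up a smaller part in aar2-1. This share was chosen after its values were seen and was not tested. It was 41.0%, 41.0% and 40.6% in aar2-1 and 44.8%, 50.3% and 44.8% in WT, without overlap. Within the miR157 3p strands, miR157c-3p made up 23.8%, 21.8% and 22.9% in aar2-1 and 29.3%, 25.4% and 26.2% in WT, also without overlap and also chosen afterwards.

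**Figure D3:**
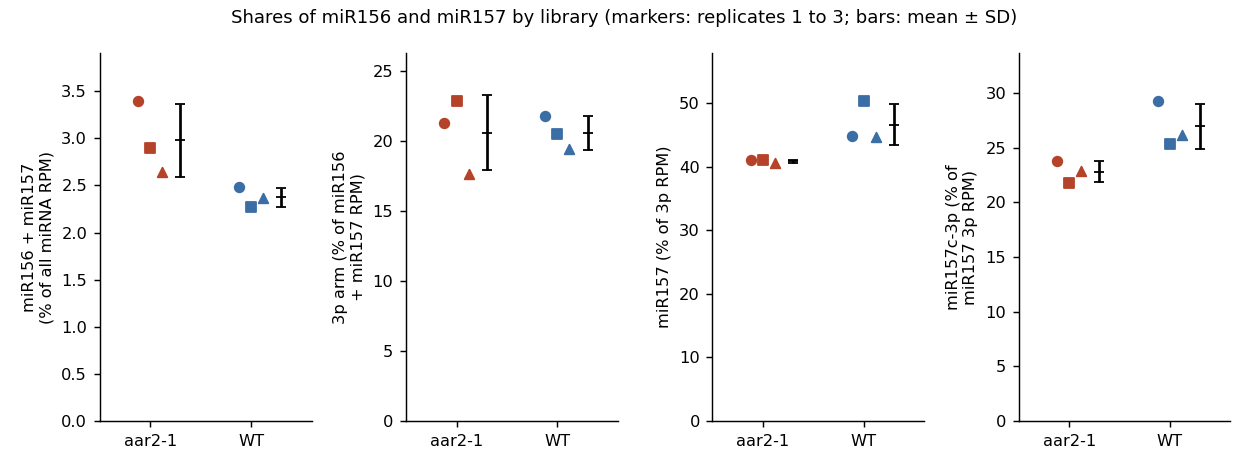
Shares of RPM by library, with aar2-1 left of WT, 1 marker per replicate and bars for the mean ± SD (n = 3 each); each axis starts at 0. The share of miR156 and miR157 in all miRNA is 2.98% in aar2-1 and 2.37% in WT, and the 3p share is 20.6% in both. The share of miR157 among 3p strands is 40.9% in aar2-1 and 46.6% in WT. This share and that of miR157c-3p were chosen after their values were seen and were not tested.

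Other miRNAs of the same developmental pathway were followed through a fixed list of 11 entries of miR172, miR159 and miR390. miR172 represses AP2-like repressors of flowering, miR159 represses MYB33 and MYB65, and miR390 starts the TAS3 small RNAs that lower ARF3 and ARF4. Of 9 tested entries 4 passed as lower and 0 as higher in limma, against 61.1% of all entries as lower. At an unadjusted limma p under 0.05 there were 5 of the 9, all lower, against 88 of all 131 tested entries in either direction. After centring on the median 0 passed as lower and 5 as higher, against 12 and 55 among all entries. All 9 changes were then positive, with a median of 0.60, against 99 of all 131 and a median of 0.52. The list's median log2 fold change with RPM as deposited was -0.74, between -1.21 and -0.59. In RPM divided by the median ratio, 0 of the 9 passed in limma and 5 of the 9 changes were above 0. At an unadjusted limma p under 0.05 there were then 0 of the 9, against 63 of all 131 tested entries. The number that passed with RPM as deposited was 2 without aar2-1 replicate 2 or WT replicate 1, 7 without aar2-1 replicate 1 and 8 without WT replicate 2. In the same order, calls of all entries in either direction numbered 62, 63, 109 and 95.

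The main miR172 entry, miR172a and miR172b-3p, had 40.5, 23.1 and 15.4 RPM in aar2-1 and 65.9, 23.0 and 55.3 RPM in WT. WT replicate 2 lay among the mutant libraries, and the log2 fold change of -0.82 did not pass (95% interval -1.71 to 0.08, limma adjusted p = 0.0944). The entry of miR172c and miR172d-3p had a mean under 1 RPM and was not tested: it had 1.74, 1.13 and 0.908 RPM in aar2-1 and 0.960, 0.410 and 0.705 RPM in WT, with overlap. With RPM as deposited the entry of miR172b-5p and miR172e-5p passed as lower (log2 fold change -0.67, limma adjusted p = 0.0299). After centring on the median it passed as higher (0.67, limma adjusted p = 0.043). It did not pass after median-ratio scaling (-0.09, limma adjusted p = 0.819) or quantile normalization (-0.01, limma adjusted p = 0.971). At its low level the 1 RPM added before the log shrinks the change, and its mean RPM was 1.99-fold lower in aar2-1. Its means were 1.26 ± 0.644 RPM in aar2-1 and 2.51 ± 0.308 RPM in WT (SD, n = 3 each). A further entry, miR172e-3p, had a mean of 0.40 RPM and was not tested.

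The largest changes of the list were those of miR159a and miR159b-3p, with log2 fold changes of -1.21 and -1.19. Both passed with RPM as deposited (limma adjusted p = 5.18e-05 and 4.31e-05). After centring they were 0.13 and 0.15, below the median of 0.52 over all tested entries, and did not pass. The entries miR159c and miR159b-5p overlapped between genotypes. They did not pass with RPM as deposited (log2 fold changes -0.62 and -0.61, limma adjusted p = 0.107 and 0.0849). After centring they passed as higher (0.72 and 0.73, limma adjusted p = 0.0389 and 0.0292). They passed neither after median-ratio scaling nor after quantile normalization. The main miR390 guide had 35.4 ± 16.4 RPM in aar2-1 and 57.1 ± 14.5 RPM in WT and did not pass (log2 fold change -0.74, limma adjusted p = 0.0825). Its partner miR390a-3p had 9.38 ± 4.51 RPM in aar2-1 and 16.5 ± 4.52 RPM in WT, with overlap. It did not pass (log2 fold change -0.80, limma adjusted p = 0.0551). The other partner, miR390b-3p, near 1 RPM, passed as lower with RPM as deposited (log2 fold change -0.59, limma adjusted p = 0.0488). It passed as higher after centring (0.75, limma adjusted p = 0.0418). Its mean RPM was 2.19-fold lower in aar2-1, and the 1 RPM added before the log shrinks changes at such levels. It did not pass after median-ratio scaling (-0.15, limma adjusted p = 0.689) or quantile normalization (0.055, limma adjusted p = 0.877). It rests on 12, 6 and 2 reads in aar2-1 and 21, 12 and 10 reads in WT. The value of aar2-1 replicate 3 is thus below the floor of 3 reads.

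Outside the 9 entries, the profiles most like the sum of miR156 and miR157 over the 6 libraries were sought among 62 entries with a mean of at least 10 RPM. By Pearson correlation of log2(RPM + 1) they were miR167a-5p with miR167b (r = 0.993), miR403-3p (0.993), miR158a-3p (0.990), miR166a-5p with miR166b-5p (0.988) and miR168a-5p with miR168b-5p (0.987). Their log2 fold changes were -1.58, -1.49, -0.88, -1.39 and -1.28. The 6 points share 2 genotypes and the library totals, and 37 of the 62 entries had r above 0.9, with a median of 0.915, so a high r is common in these tables. In all 5, as in the sum of miR156 and miR157, replicate 1 was the highest library of each genotype. For miR167a-5p with miR167b it was at 452 RPM in aar2-1 and 942 RPM in WT. The miR156 guide alone was highest in replicate 3 among the WT libraries, at 814 RPM.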

How the data were processed

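Small RNA was sequenced from 3 aar2-1 and 3 WT seedling samples, called biological replicates in the series' design text. Per the submitters' processing notes, cutadapt, Bowtie and TAIR10 were used; roles, versions and the treatment of multi-mapping reads are not given in the sources used here. The authors deposited 1 table per library in RPM, a unit inferred from the values: in each library 1 step, taken as 1 read, divided every value to a whole number (1182 of 1182 values, tolerance 0.02 reads). The floors of 3 reads cover counting error only, whereas the 95% intervals of log2 fold changes come from the spread between libraries.

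Entries, families and sums by family and arm with a mean of at least 1 RPM were tested with limma 3.58.1 (R 4.3.3) on log2(RPM + 1), genotype as the only factor, with a variance trend, in a two-sided test whose p-values were adjusted by Benjamini-Hochberg over each whole table, at 0.05. Names without an arm took it from their position in the hairpin. Single quantities were tested by exact permutation of the genotype labels. The fit was tested on simulated data. The miRNAs named are all 9 entries, the pathway list and the 5 most alike profiles; members and lists were chosen with earlier results of these data known. All 242 names matched the TAIR10.1 annotation (RefSeq), whose mature sequences and positions are given; the authors' tables hold no coordinates. Python 3.11.15, pandas 2.3.3, numpy 2.4.6, scipy 1.17.1, biopython 1.88 and matplotlib 3.10.9 were used.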

Additional observations from a re-analysis of the deposited data

How the results depend on the processing

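With the values divided by the median ratio, centred on the median or quantile normalized, the median log2 fold change of all entries moved by 0.73, 1.34 and 0.89, and calls of all entries numbered 54 (35 lower, 19 higher), 67 (12 lower, 55 higher) and 34 (16 lower, 18 higher), against 83 as deposited (80 lower, 3 higher). Members called numbered 0, 5 (all higher) and 0, against 3 (all lower), and calls of the pathway list 0, 5 (all higher) and 0, against 4 (all lower). In the same order of scalings, log2 fold changes that turned were 0.050, 0.24 and 0.19 for the miR156 family, 0.12, 0.32 and 0.58 for the miR157 family, 0.019, 0.43 and 0.048 for miR156 5p, 0.21, 0.62 and 0.32 for miR156 3p, and 0.27, 0.68 and 0.45 for miR157 5p. miR157 3p was at -0.12, 0.29 and -0.042. A turn here means a change of sign only, whether or not the value passed. Single entries turned to 0.018, 0.41 and 0.10 (miR156 guide), 0.27, 0.67 and 0.60 (miR157 guide), 0.16, 0.82 and 0.29 (miR156g), 0.19, 0.60 and 0.16 (miR156a-3p), 0.19, 0.61 and 0.022 (miR156c-3p) and 0.29, 0.75 and 0.57 (miR156b-3p). miR157a-3p with miR157b-3p turned to 0.36 and 0.031 under centring and quantile normalization, and miR157c-3p to 0.10 under centring. The difference of the sum turned to 41.6 after median-ratio scaling, with overlap between the genotypes. With a mean of at least 10 RPM required, fewer entries were tested, 62 of them outside the members. Of those tested 45 entries passed, with 2 of the pathway list, and the miR157 family passed at -0.83 (limma adjusted p = 0.0322). The difference of the 3p share was -0.0057 as the log2 ratio of 3p to 5p RPM, and -3.51 percentage points without the most abundant member.

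Leaving out 1 library at a time gave 62 to 109 calls of all entries, 2 to 8 of members and 2 to 8 of the pathway list. Log2 fold changes ran from -1.13 to -0.72 (miR156 family), -1.19 to -0.54 (miR157 family), -1.15 to -0.77 (miR156 5p), -1.02 to -0.42 (miR156 3p), -1.07 to -0.41 (miR157 5p) and -1.35 to -0.75 (miR157 3p). The sum differed by -662 to -435 RPM, the share of all miRNA by 0.397 to 0.775 percentage points, the 3p share by -1.12 to 1.50 and the miR157 share of 5p by 0.429 to 5.03 percentage points. The share of all miRNA kept its direction in all 10 alternatives. Because the genotypes did not overlap in this share, leaving out a library, the log2 scale and the replicate block could not turn it. The alternatives that could gave 0.288 percentage points without the most abundant member, and 2.54 with the 3 most abundant entries left out of the denominator. Same-numbered libraries deviated together in 1 of 3 pairs (r = 0.489, 0.0475 and -0.151). Among differently numbered pairs, r reached 0.449 (aar2-1 replicate 3 with WT replicate 2) and -0.485 (aar2-1 replicate 1 with WT replicate 2). The numbers were thus not taken to pair the samples. With a replicate block 98 entries, 6 members and 8 of the pathway list passed, and so did the miR157 family at -0.83, miR156 3p at -0.73 and miR157 5p at -0.68 (limma adjusted p = 0.00935, 0.0275 and 0.0371). The cause of these changes was not tested. The 3 planned count tests were not run: every value was a whole multiple of 1 step, but the libraries hold too few low values to meet the criterion set for treating RPM as counts. Depth limits miR156d-3p, with at most 2 reads, and miR156g.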

Other observations

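Of the annotated miR156 genes that gave no member here, MIR156i and MIR156j lie exactly on SPL target sites. The mature sequence of miR156i occupies chr1:19807090-19807109 on the minus strand, the positions of the miR156 site of SPL4 on the plus strand, and that of miR156j occupies chr2:17589066-17589085 on the minus strand, opposite the site of SPL9 (TAIR10.1). Both were not analysed here.

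The deviations of the libraries were not the same for all members. The miR157 share of the 5p strands was highest in replicate 1 of both genotypes, at 25.9% in aar2-1 and 23.7% in WT, and lowest in WT replicate 2, at 14.5%. The 3p share of miR157 was 30.0%, 37.8% and 31.5% in aar2-1 and 34.5%, 47.2% and 36.7% in WT, and was highest in replicate 2 of both genotypes.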
